A study of Homo sapiens with 8 samples.

Results

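Antisense long noncoding RNAs are transcribed from the strand opposite a protein-coding gene, or start beside such a gene and run away from it. They are named after that sense gene with the ending AS and a digit. The 100 RNAs described here were chosen by their level, as the entries so named whose expected count averaged 20 or more over the 8 libraries, out of 419 such entries and 23686 listed gene symbols. Of the other 319 entries, 109 were at 0 in every library. Just outside the threshold stood RBM26-AS1 and TLR8-AS1 at 19.1 and PRRT3-AS1 at 19.6 counts, and just inside it PAXBP1-AS1 at 20.1, ASH1L-AS1 at 20.8 and MFI2-AS1 at 21.5 counts. All 100 members passed the filter on low counts and were tested. Membership rests on the name and level alone, and RUSC1-AS1 is listed under a RefSeq identifier of the protein-coding kind.

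RNA was sequenced from HS578T and MDA-MB-231, established cell lines of triple-negative breast cancer, a class of tumour that lacks the estrogen and progesterone receptors and amplified ERBB2. Each line gave 2 siGpx1 libraries and 2 control libraries, 8 in all. The titles call the depleted libraries siGpx1 while their genotype label reads Gpx1-/-. The siGpx1 treatment and the loss of GPX1 came together in all siGpx1 libraries, so their effects cannot be told apart. Depletion below names the comparison of siGpx1 with control libraries. No label describes the control treatment, the time of harvest or the culture, and nothing says that the replicates came from separate cultures, so the spread that p-values measure here may be technical alone. GPX1 encodes a selenium-dependent glutathione peroxidase that reduces hydrogen peroxide.

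Antisense RNAs are known to act in several ways. Some pair with the sense messenger RNA and alter its stability or translation, some affect chromatin or transcription at the shared locus, and others act elsewhere in the cell, for example by binding microRNAs. Many share a bidirectional promoter with the sense gene, and many of the best studied were described in carcinoma cells.

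GPX1 had 42 and 42 counts in HS578T siGpx1 libraries against 1117 and 1074 in HS578T controls, and 108 and 95 counts in MDA-MB-231 siGpx1 libraries against 2944 and 3223 in MDA-MB-231 controls, that is 4.15% and 3.49% of the control level. Library totals ran between 12905808 and 14216365 expected counts, with 15584 to 15817 genes detected. ESR1 and PGR were under 1 TPM (a level scaled for transcript length and library size) in every group and ERBB2 averaged 31.8 to 43.8 TPM. The labels call both lines epithelial. CDH1 was at 0.985 TPM or less in all 4 groups. EPCAM averaged 0.115 and 0.11 TPM in HS578T siGpx1 and control cells against 39.3 and 32.2 TPM in MDA-MB-231 siGpx1 and control cells. KRT8, KRT18 and KRT19 averaged 678, 596 and 444 TPM in MDA-MB-231 controls, against 26.7, 322 and 0.255 TPM in HS578T controls. The summed level of 5 epithelial markers was 934 to 1032 TPM in HS578T siGpx1 libraries against 347 to 350.0 in controls, and 2747 to 2817 TPM in MDA-MB-231 siGpx1 libraries against 1741 to 1761 in controls. In HS578T that sum was mostly KRT18, at a mean of 949 TPM in siGpx1 cells against 322 in controls. Of 4 mesenchymal markers the sum was 20261 to 22331 TPM in HS578T siGpx1 libraries against 16915 to 17189 in controls. In MDA-MB-231 it was 3073 to 3105 TPM in siGpx1 libraries against 2396 to 2446 in controls. Nearly all of it was FN1 and VIM, which like CDH2 had higher means in siGpx1 cells of both lines. CDH2 was at 0.96 TPM or less in MDA-MB-231. ZEB1 went the other way, at 38.7 TPM in HS578T siGpx1 cells against 47.7 in controls, and 35.9 against 40.6 in MDA-MB-231. The sum of 5 leukocyte markers was 9.30 to 9.41 TPM in HS578T siGpx1 libraries against 7.63 to 7.80 in controls, and 14.04 to 14.56 TPM in MDA-MB-231 siGpx1 libraries against 6.91 to 6.92 in controls. Most of it was CD14. LYZ averaged 1.37 TPM in MDA-MB-231 siGpx1 cells against 0.525 in controls, and was at 0 in HS578T. CD3E was at 0 and PTPRC at 0.15 TPM or less. The sum of 3 endothelial markers was 1.37 to 5.40 TPM over all libraries, nearly all PECAM1. The sum of 3 adipocyte markers was 34.8 to 41.4 TPM in HS578T siGpx1 libraries against 28.8 to 29.9 in controls, nearly all FABP4, and 0.18 TPM or less in MDA-MB-231, while ADIPOQ was at 0 in all groups. The part of these marker shifts in the results below was not tested.

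The members were mostly rare RNAs. Their mean level over the 8 libraries had a median of 6.88 TPM and ran between 1.12 TPM (PAXBP1-AS1) and 576 TPM (C17orf76-AS1), with 37 of 100 above 10 TPM, and 97 had a count in every library. C17orf76-AS1, which RefSeq now lists as SNHG29, a host of small nucleolar RNAs, was the most abundant. PCNA-AS1, named after the sliding clamp of DNA replication, averaged 176 and 224 TPM in HS578T siGpx1 and control cells and 192 and 218 TPM in MDA-MB-231 siGpx1 and control cells. Whether its reads can be told apart from those of PCNA was not tested. HIF1A-AS2, an RNA complementary to the end of the hypoxia factor HIF1A's messenger, FGD5-AS1, TAPT1-AS1, WAC-AS1, OIP5-AS1 and FBXO22-AS1 completed the 8 highest. OIP5-AS1, a conserved RNA known to bind the microRNA miR-7, averaged 57.3 and 55.5 TPM in MDA-MB-231 siGpx1 and control cells and 21.0 and 23.8 TPM in HS578T siGpx1 and control cells.

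After GPX1 depletion the largest changes among the members were losses of FGD5-AS1 and C17orf76-AS1 in both lines. FGD5-AS1, an RNA reported to bind several microRNAs, had 371 and 359 counts in HS578T siGpx1 libraries against 2002 and 1939 in HS578T controls, and 674 and 630 counts in MDA-MB-231 siGpx1 libraries against 3040 and 3079 in MDA-MB-231 controls. All 4 depleted libraries lay far below all 4 controls. Its log2 change in HS578T was -2.32 (SE 0.05, edgeR adjusted p = 2.31e-14), and in MDA-MB-231 it was -2.14 (SE 0.05, edgeR adjusted p = 2.73e-14). C17orf76-AS1 had 1499 and 1412 counts in HS578T siGpx1 libraries against 5820 and 5522 in controls, and 1296 and 1213 counts in MDA-MB-231 siGpx1 libraries against 3438 and 3462 in controls. Its log2 change in HS578T was -1.85 (SE 0.04, edgeR adjusted p = 4.91e-14), and in MDA-MB-231 it was -1.37 (SE 0.05, edgeR adjusted p = 2.92e-12). Both RNAs passed in each line under every alternative run, including the test against a fold of 1.5. FGD5, the sense gene of FGD5-AS1, had at most 1 count in any library. FAM211A, the name under which the files list the gene once called C17orf76, had 6 and 9 counts in HS578T siGpx1 libraries against 19 and 12 in controls, and 49 and 47 counts in MDA-MB-231 siGpx1 libraries against 60 and 73 in controls.

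**Figure D1:**
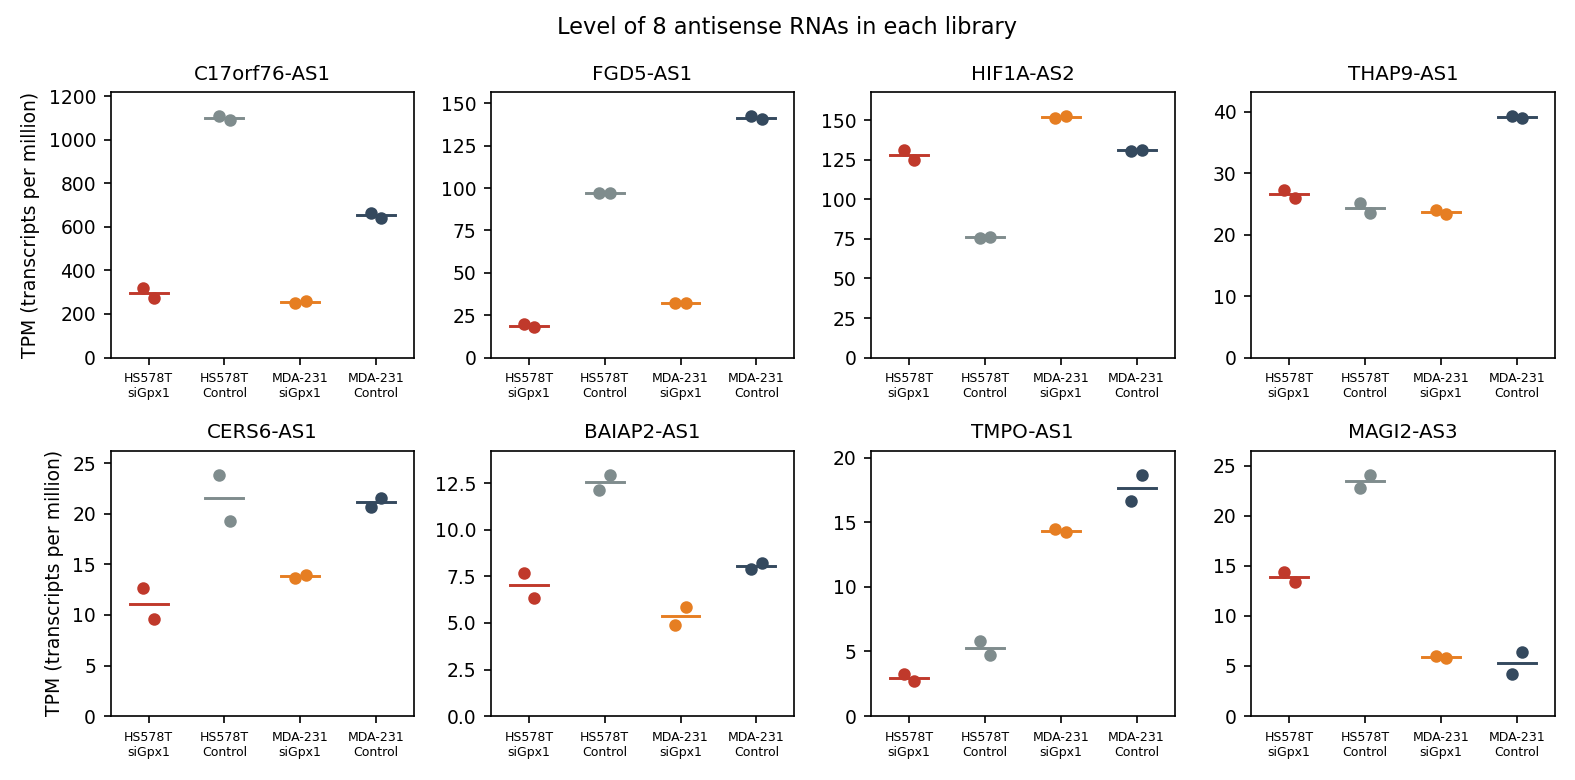
Level in TPM (vertical axis, from 0) of 8 antisense RNAs in each library, with siGpx1 left of control in each line; points are the 2 libraries of a group and bars their mean. C17orf76-AS1 and FGD5-AS1 are low in all 4 siGpx1 libraries, HIF1A-AS2 is above its control in each line, and THAP9-AS1 is below its control in MDA-MB-231 but not in HS578T.

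These 2 RNAs carried most of the fall in the members' summed level. Over all 100 members the sum was 1191 and 1157 CPM (counts scaled to library size) in HS578T siGpx1 libraries against 1636 and 1612 in controls, and 1084 and 1058 CPM in MDA-MB-231 siGpx1 libraries against 1435 and 1444 in controls. Without C17orf76-AS1 and FGD5-AS1, a choice made after the values were seen, it was 1032 and 1013 CPM in HS578T siGpx1 libraries against 1048 and 1027 in controls, where the groups overlapped. In MDA-MB-231 it was then 951 and 926 CPM in siGpx1 libraries against 1009 and 1021 in controls, which did not overlap.

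Stretches of 30 bases are shown for some of the members whose reference transcripts share letters with GPX1, because an earlier analysis of these data had associated 7-base words of the GPX1 transcript with lower expression. They are the 4 members with the longest shared word, the 3 holding a word that rose in HS578T, and FGD5-AS1, C17orf76-AS1, TRAF3IP2-AS1 and MAFG-AS1, chosen after their falls were seen. The words GGGCATC and GGCATCA were searched on the transcript strand of GENCODE 29 transcripts, and they overlap and join as GGGCATCA, which 5 of 6 GPX1 transcripts hold. Capitals mark the word found.
GPX1: gcaaccagtttGGGCATCAggagaacgcca
FGD5-AS1: ggcggggtggcGGGCATCtaattccagcta
FGD5-AS1: gggtgggctctGGCATCAgcactttcacta
FGD5-AS1: gagtatgtagtGGGCATCtgttgaatgaat
C17orf76-AS1: gaaaactaactGGCATCAacactgggtgta
BAIAP2-AS1: gcttatgggctGGGCATCcagagatcgccc
BAIAP2-AS1: cggcaccgaggGGGCATCAtttggcatagg
ASB16-AS1: cccggccgcccGGGCATCAgctccagcctc
SH3BP5-AS1: ttaccagaaatGGCATCAggctcaggtttg
SH3BP5-AS1: gaagcaaaaatGGGCATCAgacacaccaaa
SH3BP5-AS1: gatgaacaagaGGCATCAgctaccactggc
TP73-AS1: caccttggcctGGGCATCtttggggtgggc
TP73-AS1: cagaattccttGGGCATCAccgggcggggc
TRAF3IP2-AS1: gggcagggcatGGGCATCtattgttcacca
MAFG-AS1: aggcacctcccGGGCATCctcccgccccag
ZMIZ1-AS1: atgtgagttttGGGCATCcttctatcagcc
PCOLCE-AS1: gcggccatcagGGGCATCcaccctacgatc
ASMTL-AS1: ccatagcctgtGGGCATCcaggggtgagcg

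Transcripts were matched for 94 of 100 members, and 30 of them held either word in at least 1 transcript. FGD5-AS1 held 3 such words in its longest transcript and C17orf76-AS1 held GGCATCA in 10 of its 16 transcripts. The 4 members with the whole 8-base word, ASB16-AS1, BAIAP2-AS1, SH3BP5-AS1 and TP73-AS1, had median log2 changes of -0.54 (HS578T) and -0.30 (MDA-MB-231). The 26 members with a 7-base word only had medians of -0.10 and -0.13, and the 64 with neither had -0.03 and -0.03. In HS578T 3, 9 and 8 members of these 3 classes fell and 0, 3 and 10 rose, and in MDA-MB-231 2, 5 and 11 fell and 0, 0 and 2 rose. The shares over all genes tested were 22.1% lower and 28.6% higher (HS578T), and 21.9% lower and 20.7% higher (MDA-MB-231). By symbol, 13069 of these genes were matched to the same words. Of the 1304 holding the whole word, 41% were lower and 18.3% higher in HS578T. Of the 4473 with a 7-base word only, 30% were lower and 24% higher, and of the 7292 with neither 14.7% and 34.3%. In MDA-MB-231 the shares were 38.7% and 13.9%, 29.3% and 18.3%, and 15.1% and 24.5%. Because the words came from an earlier analysis of these same data, this split is not independent of their choice and is no separate evidence for the members. Transcript length moved with the members' classes, with median longest transcripts of 4792, 2418 and 2162 bases. Over the 13069 genes the medians were 4506.5, 4323 and 3155.5 bases. The part of length in the differences was not tested. Taking the longest transcript of each, 28 of 94 members (29.8%) held a word, against 12.1% of 26232 noncoding genes and 16.6% of all reference transcripts. Per kilobase the members had 0.167 matches, noncoding genes 0.137 and all transcripts 0.159. A match is a description of letters and not a site.

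**Figure D2:**
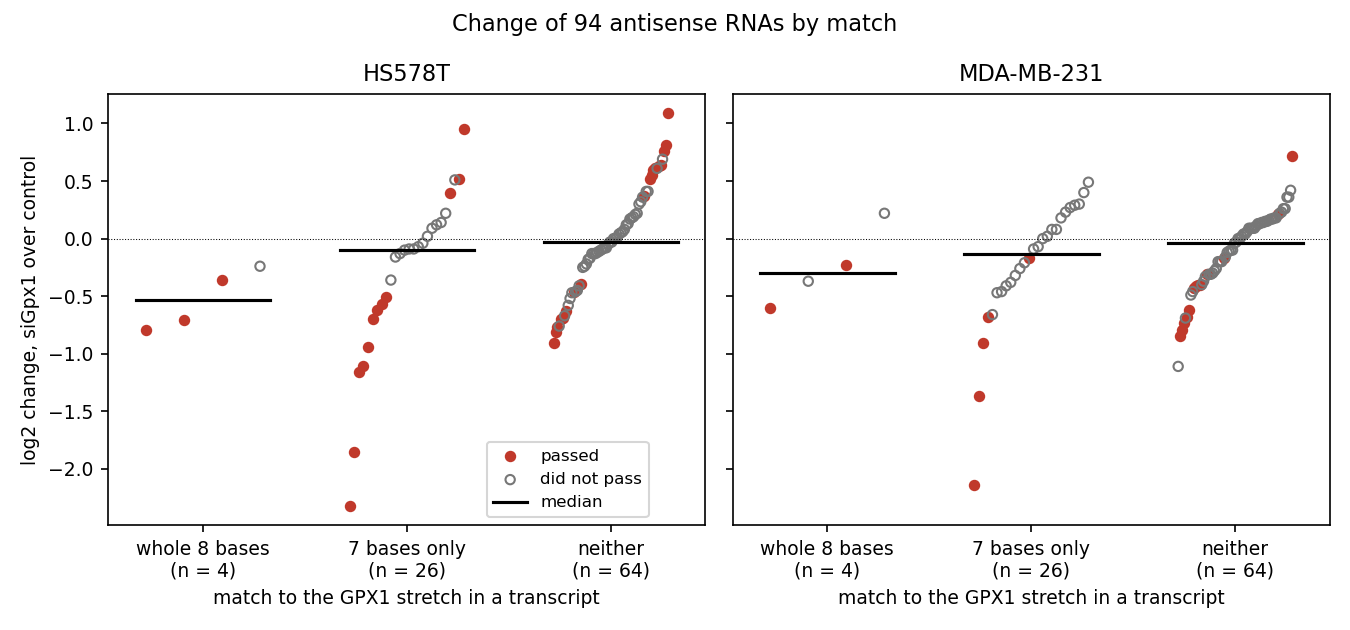
Log2 change after depletion (vertical axis) of the 94 members with matched transcripts, by whether a transcript holds the whole 8-base GPX1 word (n = 4), a 7-base word only (n = 26) or neither (n = 64); filled points passed the test and bars are medians. The classes overlap widely, and the lowest points in both lines, FGD5-AS1 and C17orf76-AS1, lie in the 7-base class.

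In HS578T, 34 of 100 members passed the test at an adjusted p under 0.05, 21 lower and 13 higher in siGpx1 cells, against a background of 50.7% of the 14249 genes tested, 22.1% lower and 28.6% higher. The members' median log2 change was -0.08, beside 0.04 over all genes. Members were shallow. Of members averaging 20 to 50 counts 24.1% passed, against 20.6% of all genes in that range, and the shares were 27.3% against 30% at 50 to 100 counts and 46.9% against 50.7% at 100 to 500. Of the 6 members averaging 500 or more 50% passed, against 68.7%. DESeq2 called 16 members in HS578T, 13 lower and 3 higher, and its share over all genes is not given here.

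Apart from FGD5-AS1 and C17orf76-AS1, the largest falls among members that passed in HS578T were in TRAF3IP2-AS1, HOXA-AS3, PSMG3-AS1, CERS6-AS1, WDFY3-AS2 and BAIAP2-AS1. CERS6-AS1, from the locus of a ceramide synthase, had 182 and 146 counts in siGpx1 libraries against 376 and 293 in controls, a log2 change of -0.91 (SE 0.12, edgeR adjusted p = 1.24e-05). BAIAP2-AS1, beside the gene of an adaptor of membrane protrusion, had 170 and 149 counts against 294 and 303 in controls, a log2 change of -0.79 (SE 0.11, edgeR adjusted p = 1.63e-05). TRAF3IP2-AS1 had 26 and 20 counts in siGpx1 libraries against 61 and 51 in controls, a log2 change of -1.16. HOXA-AS3, from the HOXA cluster of homeobox genes, had 24 and 34 counts against 69 and 67 in controls, and its neighbour HOXA-AS4 rose, with 147 and 159 counts against 107 and 110 in controls. Their log2 changes were -1.11 (edgeR adjusted p = 0.00208) and 0.61 (edgeR adjusted p = 0.00361), and neither passed in DESeq2. PSMG3-AS1 and WDFY3-AS2 had log2 changes of -0.94 and -0.81. PSMG3-AS1 lost its call without control replicate 2 or siGpx1 replicate 2, and WDFY3-AS2 without either of these or siGpx1 replicate 1, under the replicate block and in DESeq2 (adjusted p = 0.21). MAGI2-AS3, reported as lowered in several carcinomas, fell by 0.63 on the log2 scale, with 258 and 260 counts in siGpx1 libraries against 451 and 418 in controls.

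The largest rises among members that passed in HS578T were in NOP14-AS1, ZMIZ1-AS1, HIF1A-AS2, C1RL-AS1, RAB11B-AS1, H1FX-AS1, HOXA-AS4 and PXN-AS1. HIF1A-AS2 had 1328 and 1340 counts in siGpx1 libraries against 841 and 813 in controls, a log2 change of 0.81 (SE 0.05, edgeR adjusted p = 1.11e-09). NOP14-AS1, opposite a ribosome assembly factor, had 85 and 74 counts against 40 and 41 in controls, a log2 change of 1.09 (SE 0.23, edgeR adjusted p = 0.000835). LOXL1-AS1, opposite a collagen and elastin crosslinking oxidase, had 245 and 288 counts in siGpx1 libraries against 198 and 205 in controls, a log2 change of 0.52. HIF1A-AS2 kept its call in every alternative, and NOP14-AS1 and LOXL1-AS1 in all but the test against a fold of 1.5. ZMIZ1-AS1 (0.95), C1RL-AS1 (0.76), RAB11B-AS1 (0.64), H1FX-AS1 (0.63) and PXN-AS1 (0.60 on the log2 scale) passed with group means under 10 CPM. None of the 5 passed in DESeq2, and each lost its call without at least 1 library. For C1RL-AS1 these were replicate 1 of either HS578T group, for H1FX-AS1 replicate 2 of either HS578T group, and for ZMIZ1-AS1 control replicate 2 or siGpx1 replicate 1. RAB11B-AS1 lost its call without any one of the 4 HS578T libraries, and PXN-AS1 without any one of 7 libraries, all but HS578T siGpx1 replicate 2.

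In MDA-MB-231, 21 of 100 members passed, 19 lower and 2 higher in siGpx1 cells, against 42.6% of all genes tested, 21.9% lower and 20.7% higher. These background shares are of the main fit, and those under the alternatives are not given here. With DESeq2 size factors the split was 15 lower and 4 higher. Leaving out either control replicate 1 or siGpx1 replicate 2 gave 13 calls, and DESeq2 gave 6, with 5 lower and 1 higher. The members' median log2 change was -0.10, beside 0.00 over all genes. Of members averaging 20 to 50 counts 6.9% passed, against 15.4% of all genes in that range, and the shares were 12.1% against 21.7% at 50 to 100 counts and 31.2% against 43.9% at 100 to 500. Of the 6 members averaging 500 or more 83.3% passed, against 58.4%.

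The 2 members called higher in MDA-MB-231 were PXN-AS1 and HIF1A-AS2. PXN-AS1, opposite the focal adhesion protein paxillin, had 99 and 90 counts in siGpx1 libraries against 57 and 65 in controls, a log2 change of 0.72 (SE 0.18, edgeR adjusted p = 0.00509, and 0.0683 in DESeq2). HIF1A-AS2 had 1698 and 1619 counts against 1499 and 1549 in controls, a small log2 change of 0.21 (SE 0.04, edgeR adjusted p = 0.000919) that all alternatives but the fold test kept. After FGD5-AS1 and C17orf76-AS1, the largest falls among members that passed were in MAFG-AS1 (-0.91), ATP6V0E2-AS1 (-0.85), FBXL19-AS1 (-0.79), THAP9-AS1 (-0.73), APCDD1L-AS1 (-0.68) and PITPNA-AS1 (-0.68 on the log2 scale). HAS2-AS1, with 2 and 7 counts in siGpx1 libraries against 15 and 6 in controls, had -1.11 and did not pass (edgeR adjusted p = 0.153). THAP9-AS1, named after a gene descended from a DNA transposase, had 295 and 273 counts in siGpx1 libraries against 495 and 503 in controls (SE 0.07, edgeR adjusted p = 5.34e-07). CERS6-AS1 had 217 and 211 counts against 338 and 362 in controls, and BAIAP2-AS1 had 120 and 136 counts against 199 and 212 in controls. Their log2 changes were -0.62 and -0.60, and these 2 and THAP9-AS1 kept their calls in all alternatives but the fold test. MAFG-AS1 lost its call without siGpx1 replicate 2, FBXL19-AS1 without that library or control replicate 1, and APCDD1L-AS1 without any one of the 4 MDA-MB-231 libraries. MAFG-AS1, FBXL19-AS1 and APCDD1L-AS1 also lost theirs in DESeq2. ATP6V0E2-AS1 and PITPNA-AS1 lost theirs in DESeq2 and in the fold test. WAC-AS1, TP73-AS1 and AFAP1-AS1 passed with small log2 changes of -0.17, -0.23 and -0.17, and each lost its call without any one of the 4 MDA-MB-231 libraries.

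Members that fell in both lines numbered 8 of 100, beside a background of 14.3% of all genes. They were FGD5-AS1, C17orf76-AS1, MAFG-AS1, CERS6-AS1, APCDD1L-AS1, BAIAP2-AS1, TMPO-AS1 and SNRK-AS1. HIF1A-AS2 and PXN-AS1 rose in both, 2 of 100 beside 14.9%. No member passed in opposite directions, beside 1.54% of all genes, and 55 passed in neither line. TMPO-AS1, opposite a nuclear lamina protein, had 51 and 45 counts in HS578T siGpx1 libraries against 100 and 78 in controls, and 252 and 235 counts in MDA-MB-231 siGpx1 libraries against 297 and 343 in controls. Its log2 changes were -0.77 and -0.31, and the second lost its call without control replicate 2 or either siGpx1 replicate of MDA-MB-231. APCDD1L-AS1 had 217 and 211 counts in HS578T siGpx1 libraries against 346 and 366 in controls, and 25 and 26 counts in MDA-MB-231 siGpx1 libraries against 41 and 46 in controls. SNRK-AS1 had log2 changes of -0.46 and -0.40, and the second lost its call without replicate 1 of either MDA-MB-231 group.

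**Figure D3:**
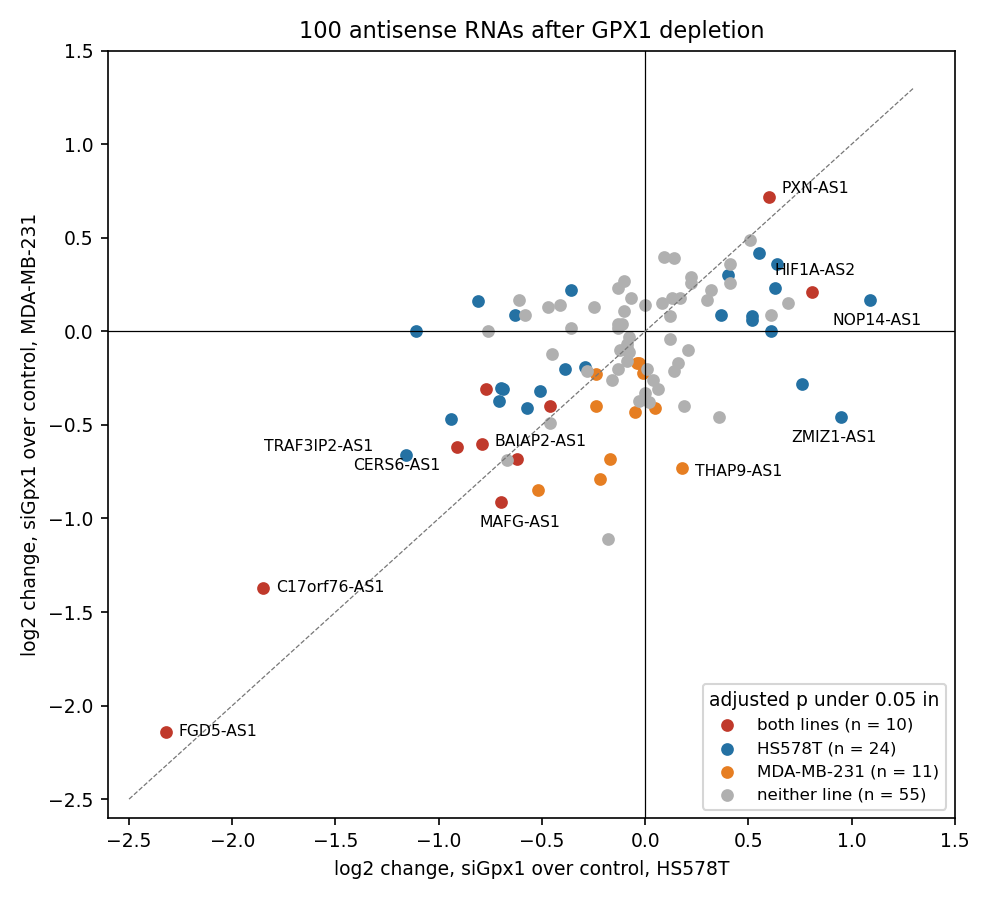
Log2 change after depletion, siGpx1 over control, of the 100 members in HS578T (horizontal axis) and MDA-MB-231 (vertical axis), coloured by the line or lines in which they passed; the dashed line marks equal change. FGD5-AS1 and C17orf76-AS1 lie far down the dashed line, 55 grey points gather near the centre, and THAP9-AS1 and ZMIZ1-AS1 lie away from the line.

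The depletion effect itself differed between the lines for 8 of 100 members, beside 17% of all genes tested. The difference is the effect in MDA-MB-231 minus that in HS578T, and 3 members were higher (6.32% of all genes were) and 5 lower (10.7% were), or 4 and 3 with DESeq2 size factors. THAP9-AS1 had log2 changes of -0.73 in MDA-MB-231 and 0.18 in HS578T, where it did not pass, a difference of -0.91 (SE 0.10, edgeR adjusted p = 2.21e-05). HIF1A-AS2 had 0.21 in MDA-MB-231 and 0.81 in HS578T, a difference of -0.60 (SE 0.06, edgeR adjusted p = 1.24e-05). C17orf76-AS1 had -1.37 in MDA-MB-231 and -1.85 in HS578T, a difference of 0.47 (SE 0.06, edgeR adjusted p = 0.000111). MAGI2-AS3 had 0.09 in MDA-MB-231, where it did not pass, and -0.63 in HS578T, a difference of 0.72 (SE 0.16, edgeR adjusted p = 0.00607). SH3BP5-AS1, opposite a binding partner of the tyrosine kinase BTK, had 0.22 in MDA-MB-231, where it did not pass, and -0.36 in HS578T, a difference of 0.58 (SE 0.13, edgeR adjusted p = 0.00666). These 5 held under every alternative but the fold test. ZMIZ1-AS1, NOP14-AS1 and LOXL1-AS1 had differences of -1.41, -0.91 and -0.46 with edgeR adjusted p of 0.0299, 0.0357 and 0.0462, and 5 calls remained without HS578T control replicate 2, without either MDA-MB-231 control replicate or without MDA-MB-231 siGpx1 replicate 2. FGD5-AS1 showed a difference of 0.17 that did not pass (edgeR adjusted p = 0.114).

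A listed sense gene existed for 96 members, and 91 of these genes were tested. By GENCODE 29, a later annotation than the one counted, 72 members have exons that overlap those of the sense gene on the other strand, 7 overlap the gene but not its exons, 11 start beside the gene and face away, and 10 could not be placed. Whether the counting used strand is not given in the sources used here, and without strand the reads of a gene and its antisense partner cannot be told apart where their exons overlap. Every detected value of the members was a whole number within 0.005, including the 72 with overlapping exons, against 96.8% of values of the sense genes and 94.8% over all genes. The antisense RNA had the higher mean TPM in 23 of 96 pairs. FGD5-AS1 averaged 72.4 TPM over the 8 libraries and FGD5 0.0112 TPM, MAGI2-AS3 12.1 and MAGI2 0.865 TPM, THAP9-AS1 28.4 and THAP9 2.69 TPM, and TAPT1-AS1 47.9 and TAPT1 12.6 TPM. POU4F1, sense gene of POU4F1-AS1 at 12.3 TPM, was listed at 0 in all 8 libraries.

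In HS578T both partners passed in 21 pairs, 15 in the same direction and 6 in opposite directions, and in MDA-MB-231 in 14 pairs, 11 and 3. Of the 91 tested pairs the antisense RNA passed in 30 and the sense gene in 59 (HS578T), and in 19 and 45 (MDA-MB-231). Across the 91 pairs, which share the same libraries and are not independent replicates, Pearson's r between the antisense and sense log2 changes was 0.14 (HS578T) and 0.28 (MDA-MB-231). HIF1A-AS2 moved closely with HIF1A, the oxygen-regulated subunit of hypoxia-inducible factor, which rose by 0.76 (HS578T, edgeR adjusted p = 3.9e-11) and 0.15 (MDA-MB-231, edgeR adjusted p = 0.00116) on the log2 scale. The TPM of HIF1A-AS2 was 35.0% and 33.7% of that of HIF1A in HS578T siGpx1 libraries and 32.7% and 34.0% in controls, and 33.3% and 33.2% in MDA-MB-231 siGpx1 libraries and 31.8% and 32.3% in controls. That near-constant ratio held although HIF1A ranged over the groups between 228 TPM in HS578T controls and 457 TPM in MDA-MB-231 siGpx1 cells, and whether HIF1A-AS2 reads can be told apart from HIF1A reads was not tested. GENCODE 29 places HIF1A-AS2 inside HIF1A without exon overlap, whereas the RNA is known as complementary to the messenger's end, and the model counted by the authors was not examined. CERS6 fell with CERS6-AS1 (log2 changes of -0.86 and -0.49 in HS578T and MDA-MB-231), TMPO fell with TMPO-AS1 (-0.99 and -0.77), and APCDD1L fell with APCDD1L-AS1 (-0.57 and -0.50). CERS6-AS1 averaged 89.9% and 93.3% of the TPM of CERS6 in HS578T siGpx1 and control libraries, and 78.1% and 86.0% in MDA-MB-231. For APCDD1L these shares were 11.0% and 11.4%, then 8.12% and 9.19%, and for TMPO 6.02% and 5.25%, then 7.16% and 5.32%. PCNA-AS1 had 0.505 and 0.551 of the TPM of PCNA in HS578T siGpx1 and control cells, and 0.485 and 0.493 in MDA-MB-231. Whether the reads of these partners can be told apart was not tested either. PXN rose in both lines with PXN-AS1, by 1.5 in HS578T cells and 1.24 in MDA-MB-231 cells on the log2 scale. PXN-AS1 was 17.1% and 12.9% of the TPM of PXN in HS578T siGpx1 libraries, against 30.8% and 25.1% in controls, so this ratio did not stay level.

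Other pairs passed in opposite directions. MAFG-AS1, which starts beside the gene of a small MAF transcription factor, had 32 and 36 counts in HS578T siGpx1 libraries against 60 and 60 in controls, and 37 and 23 counts in MDA-MB-231 siGpx1 libraries against 62 and 58 in controls. MAFG rose by 0.57 (edgeR adjusted p = 5.24e-07) and 0.50 (edgeR adjusted p = 2.64e-06) on the log2 scale in HS578T and MDA-MB-231. STARD4, a cholesterol transfer protein, fell by 1.29 (edgeR adjusted p = 3.18e-06) in HS578T cells, and by 1.16 in MDA-MB-231 cells, on the log2 scale. STARD4-AS1 had 426 and 412 counts in HS578T siGpx1 libraries against 361 and 341 in controls, a log2 change of 0.37 (edgeR adjusted p = 0.00306, and 0.0977 in DESeq2). In MDA-MB-231 it had 0.09 and did not pass. In HS578T, TRAF3IP2 rose by 0.54 while TRAF3IP2-AS1 fell, and ZMIZ1, H1FX and LPP fell by 0.54, 0.47 and 0.63 while ZMIZ1-AS1, H1FX-AS1 and LPP-AS2 rose. In MDA-MB-231 AFAP1 and HNRNPU rose by 0.27 and 0.15 while AFAP1-AS1 and HNRNPU-AS1 fell. Of the antisense RNAs in these pairs, only TRAF3IP2-AS1 kept its call in every alternative but the fold test, and MAFG-AS1 lost its call in HS578T without control replicate 2 or siGpx1 replicate 1. THAP9 and MAGI2 did not pass in either line. Of the sense genes as a whole 59 of 91 passed in HS578T (26 higher, 33 lower) and 45 of 91 in MDA-MB-231 (19 higher, 26 lower). Beside these stand 50.7% of all genes tested in HS578T (28.6% higher, 22.1% lower) and 42.6% in MDA-MB-231 (20.7% higher, 21.9% lower).

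**Figure D4:**
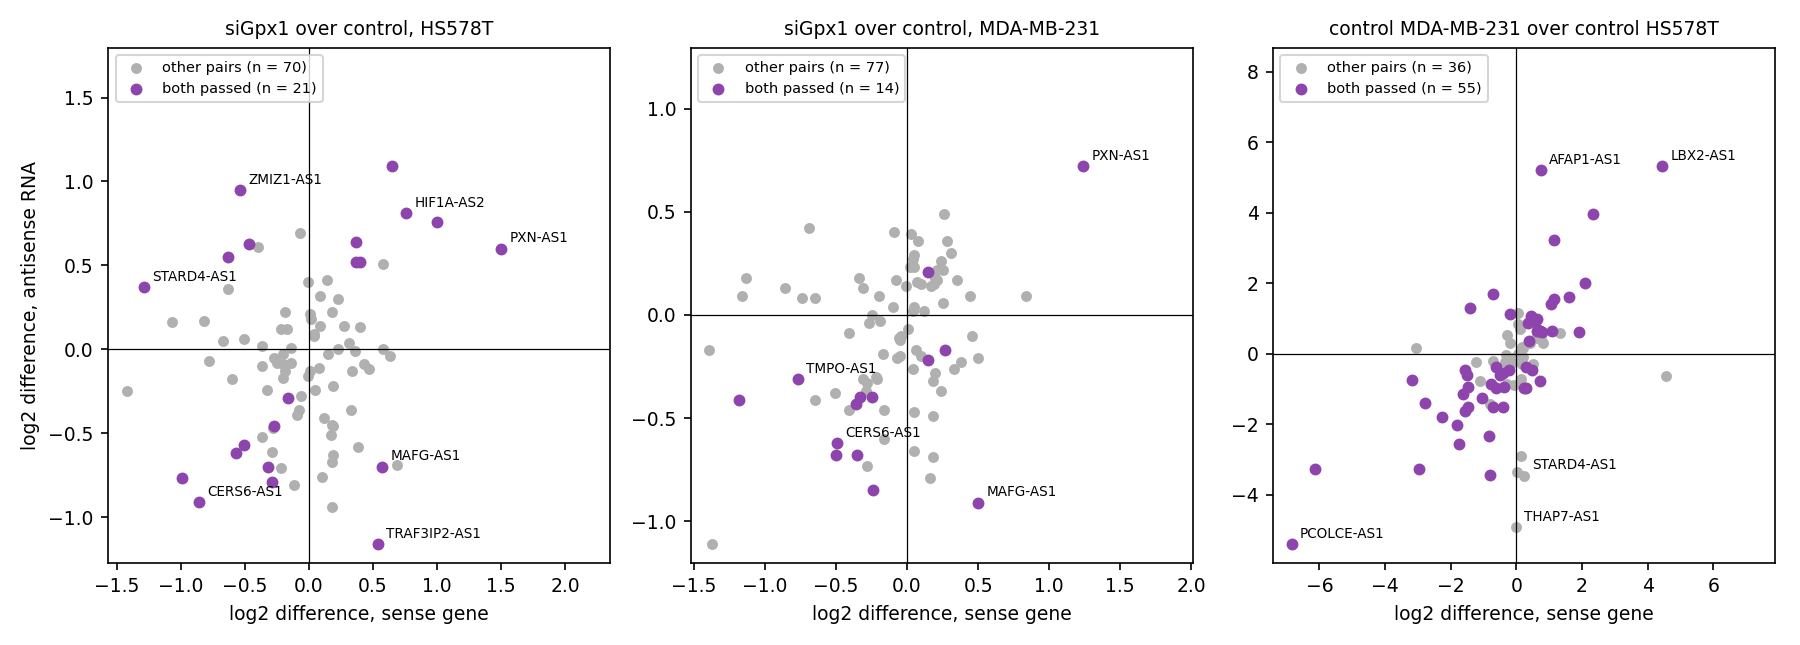
Log2 difference of the antisense RNA (vertical axis) against that of its sense gene (horizontal axis) for the 91 tested pairs, after depletion in HS578T (left) and MDA-MB-231 (centre), and in control MDA-MB-231 over control HS578T (right); purple pairs passed on both sides. Purple points fill all 4 quadrants in HS578T, and in the line comparison most lie along the rising diagonal.

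Between the control cells of the lines more members passed than after depletion. A mean of 20 counts was reached in both lines by 80 members, in HS578T alone by 12 and in MDA-MB-231 alone by 8, and since the last 20 are members through 1 line only, their difference is in part fixed by the choice. Of the 80, 59 passed (73.8%), 25 higher and 34 lower in MDA-MB-231, against 80.9% of the 11469 genes with such means in both lines, 43.6% higher and 37.4% lower. Their median log2 difference was -0.18, beside 0.06 over those genes. Over all 100 members 74 passed, 30 higher and 44 lower, against 81.6% of all genes, 43% higher and 38.6% lower. The median was then -0.24, also with RNAs at 0 set at their bound, beside 0.05 over all genes. This comparison uses the same control libraries as the depletion comparisons. Of the RNAs named below, AFAP1-AS1, LBX2-AS1, ARHGAP5-AS1 and ATP6V0E2-AS1 averaged under 20 counts in HS578T. HOXA-AS4, HOXA-AS3, PCOLCE-AS1, THAP7-AS1, HHIP-AS1 and PAXBP1-AS1 averaged under 20 counts in MDA-MB-231. All of these are members through the other line only, so their differences and p-values are in part fixed by the choice.

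AFAP1-AS1, an RNA reported as raised in many carcinomas, had 833 and 828 counts in MDA-MB-231 controls against 22 and 16 in HS578T controls, a log2 difference of 5.21 (SE 0.11, edgeR adjusted p = 1.01e-15), while AFAP1, an actin filament adaptor, differed by 0.74. LBX2-AS1 had 47 and 58 counts in MDA-MB-231 controls against 1 and 1 in HS578T controls, and LBX2, a homeobox gene, had 29 and 28 against 1 and 1. ARHGAP5-AS1 had 106 and 84 counts in MDA-MB-231 controls against 6 and 4 in HS578T controls, and ATP6V0E2-AS1 had 140 and 137 against 16 and 9. TP73-AS1, HOXD-AS1, SBF2-AS1 and TMPO-AS1 were higher in MDA-MB-231 by 2.01, 1.99, 1.69 and 1.61 on the log2 scale. SBF2 went the other way, with a log2 difference of -0.71.

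HOXA-AS4 and HOXA-AS3 were at 0 in all 4 MDA-MB-231 libraries, with 107 and 110 and with 69 and 67 counts in HS578T controls. Setting the floor at 3 counts over a group, HS578T controls had at least 85.1-fold and 53.3-fold higher CPM. PCOLCE-AS1 had 2 and 3 counts in MDA-MB-231 controls against 93 and 95 in HS578T controls, and PCOLCE, which helps process procollagen, had 21 and 19 against 1993 and 1924. STARD4-AS1 had 46 and 29 counts in MDA-MB-231 controls against 361 and 341 in HS578T controls, and MBNL1-AS1 had 40 and 40 against 362 and 375, with log2 differences of -3.45 and -3.43. STARD4 itself differed by 0.24 and did not pass (edgeR adjusted p = 0.0785). THAP7-AS1 had 1 and 8 counts in MDA-MB-231 controls against 129 and 110 in HS578T controls, while THAP7 had 227 and 220 against 190 and 196 and did not pass. HHIP-AS1, opposite an inhibitor of hedgehog ligands, and PAXBP1-AS1 had log2 differences of -3.27 and -3.36. Across the 91 pairs Pearson's r between antisense and sense differences was 0.62, both partners passed in 55 pairs, and 47 of these went the same way. The antisense RNA passed in 67 of the 91 pairs and the sense gene in 73. These pairs include members chosen through 1 line only, whose differences are in part fixed by the choice. Values without them were not computed.

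**Figure D5:**
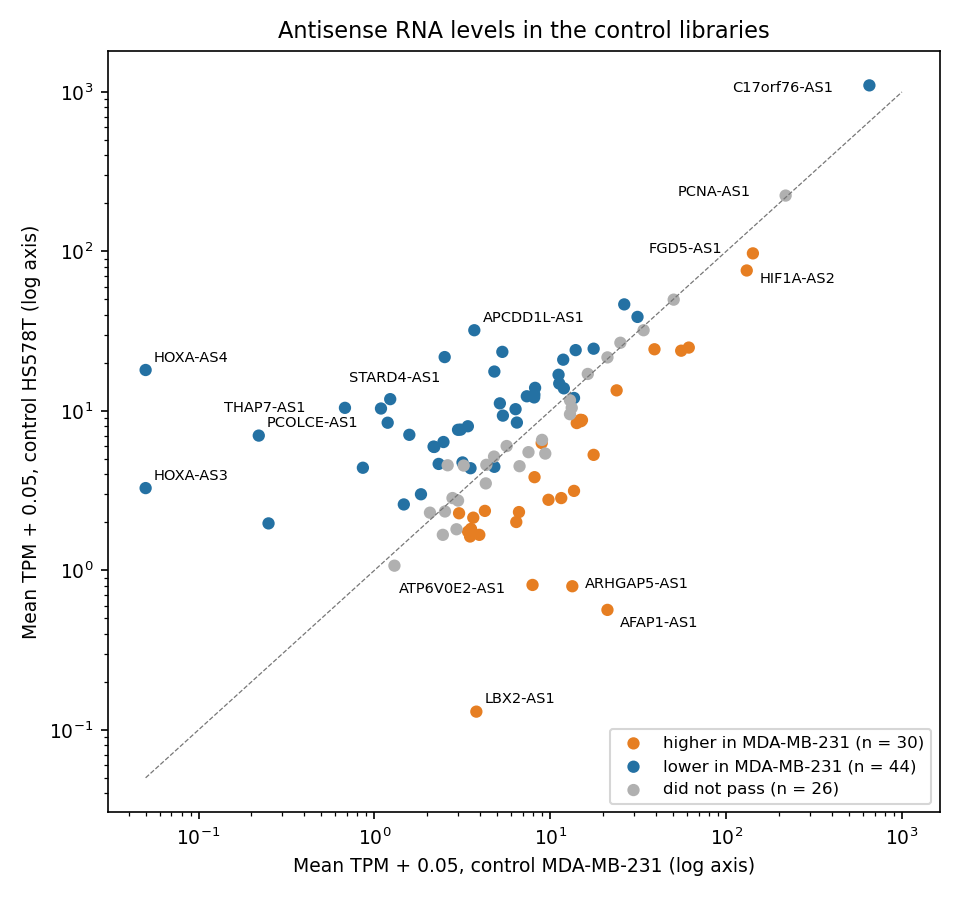
Mean level of the 100 members in control cells, MDA-MB-231 (horizontal axis) against HS578T (vertical axis), in TPM plus 0.05 on log axes; colours give the test between the lines and the dashed line marks equal level. HOXA-AS3 and HOXA-AS4 stand at the left edge, where MDA-MB-231 is at 0, and LBX2-AS1 and AFAP1-AS1 stand lowest in HS578T among the members higher in MDA-MB-231.

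Several antisense RNAs often studied in carcinoma did not pass after depletion in either line. OIP5-AS1 had log2 changes of -0.13 (HS578T) and 0.04 (MDA-MB-231), ZEB1-AS1 had -0.08 and -0.03, MCM3AP-AS1 had -0.08 and -0.11, and SBF2-AS1 had 0.30 and 0.17. FOXD2-AS1, with 29 and 28 counts in HS578T siGpx1 libraries against 37 and 25 in controls, had 0.00 and -0.33. The SEs of these 5 ran between 0.06 and 0.26, and since a call takes a change of several SEs, changes well over that size could be missed at this depth. MAPKAPK5-AS1 had -0.05 in HS578T and -0.43 in MDA-MB-231, where it passed (edgeR adjusted p = 0.00797). It did not pass in DESeq2 (adjusted p = 0.186), nor without control replicate 2 or siGpx1 replicate 1 of that line.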

How the data were processed

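Gene-level tables of 8 RNA-seq libraries were used. Per the submitters' processing notes, reads were checked with FastQC and quantified with RSEM 1.2.12 on hg19. The deposited columns hold expected counts and TPM per gene, as made by the authors, while the sources used here give no aligner, trimming or strand setting. Expected counts were rounded to whole numbers. Genes passing filterByExpr (14249) were fitted with edgeR 4.0.16 (R 4.3.3), TMM scaling, 1 mean per group over all 8 libraries, and the quasi-likelihood test with Benjamini-Hochberg adjustment over all genes tested, called under 0.05. The common biological coefficient of variation was 0.0342 with 4 residual degrees of freedom. CPM values use the TMM library sizes. The standard error is the log2 change divided by the root of the F statistic. Library totals ran between 12905808 and 14216365, and that depth sets the precision of low members. Alternatives were DESeq2 1.42.0, its size factors in edgeR, no filter, a filter of 5 CPM in 2 libraries, each line fitted alone, a replicate block, limma 3.58.1 on log2(TPM + 1), a test against a fold of 1.5, each library left out, and member thresholds of 10 and 50. The fit was tested on data simulated from these libraries (14093 genes). For HS578T it called 48%, 62%, 80% and 94% of 50 genes each seeded at folds of 1.25, 1.5, 2 and 4, and 8.39% of its calls were not seeded. For MDA-MB-231 it called 42%, 66%, 80% and 96%, and 11.25% of its calls were not seeded. Both shares of calls not seeded lay above the 0.05 at which genes were called. Seeded genes were drawn from all depths, far fewer genes changed than passed in the data, and each gene had the same spread in every group. The shares recovered are therefore not those for members at their lower depth.

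Members, gene lists and the words searched were chosen with earlier results of these data known. Genes named are the 8 highest in mean TPM, up to 8 called per direction and comparison by size of change (6 for both lines together, 5 for the difference between lines), the 3 on each side of the threshold, their sense genes, and a list of much studied antisense RNAs; others named were chosen after their values were seen. Transcripts come from GENCODE 29 on GRCh38, matched by accession (84) or symbol (10) for 94 members. Since the files use hg19, no coordinates are given.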

Additional observations from a re-analysis of the deposited data

Results flagged for a closer look

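The effect of depletion differed between the lines, by edgeR's interaction test, for 16 of the named RNAs and sense genes. These were named partly by this same test, so the 16 cannot be set against a background share. Over the whole lists 8 of 100 members and 16 of 91 tested sense genes passed, beside 17% of all genes tested. Each difference is the log2 effect in MDA-MB-231 minus that in HS578T. Among antisense RNAs it was 0.72 for MAGI2-AS3, 0.58 for SH3BP5-AS1 and 0.47 for C17orf76-AS1. It was -1.41 for ZMIZ1-AS1, -0.91 for NOP14-AS1, -0.91 for THAP9-AS1, -0.60 for HIF1A-AS2 and -0.46 for LOXL1-AS1.

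Among their sense genes it was 0.49 for H1FX and 0.37 for CERS6. It was -0.79 for C1RL, -0.61 for HIF1A, -0.49 for TRAF3IP2, -0.36 for AFAP1, -0.30 for NOP14 and -0.27 for PXN. Of 15 alternatives, PXN lost this call in 8, NOP14 and TRAF3IP2 in 7 each, C1RL in 6 and AFAP1 in 2, while HIF1A, H1FX and CERS6 lost it in 1, the test against a fold of 1.5. Among the antisense RNAs LOXL1-AS1 lost it in 14 of 15, NOP14-AS1 in 11 of 15 and ZMIZ1-AS1 in 7 of 13, and the others in the fold test alone. HIF1A and HIF1A-AS2 thus differed between lines by nearly the same amount, while THAP9 (-0.30, edgeR adjusted p = 0.506) and SH3BP5 (0.33, edgeR adjusted p = 0.103) did not pass beside their antisense RNAs.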

How the results depend on the processing

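Counts of called members were 34, 21, 8 and 74 for HS578T, MDA-MB-231, the difference between lines and the control lines. The background shares given above are those of the main fit. Shares of all genes called under the alternatives are not given here. Whether a drop in calls is particular to the members can therefore not be read from the counts that follow. DESeq2 called 16, 6, 5 and 61, with no adjusted p for 8 members in MDA-MB-231 and 28 for the difference. The test against a fold of 1.5 called 4, 2, 0 and 50, beside 15 members with an unadjusted p under 0.05 for the difference in the main fit. Leaving out 1 library gave 24 to 34, 13 to 26, 5 to 9 and 67 to 78. Deviations of same-numbered libraries had correlations over genes of -0.035 (HS578T) and 0.055 (MDA-MB-231), so no shared deviation by replicate number was seen. With 2 libraries a group this cannot show whether same-numbered libraries were prepared as pairs. The replicate block called 33, 20, 7 and 67. The other alternatives stayed within 1.5 times of these counts. With limma on log2(TPM + 1), which moved the median of all genes between control lines to 0.17 against 0.05, the difference of TRAF3IP2-AS1 between control lines was 0.07 in place of -0.70; the cause was not tested. Of 175 called values of named genes, 71 kept their call under all settings run and 104 lost it under at least 1. A fit of each line alone gives no difference between lines. Depth limits the members averaging under 50 counts.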

Other observations

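Other noncoding RNAs with a mean of 20 or more counts were fewer than the antisense RNAs. Of 13 small nucleolar RNA host genes named SNHG, 7 passed in HS578T (5 lower, 2 higher in siGpx1 cells) and 5 in MDA-MB-231 (3 lower, 2 higher), with median log2 changes of -0.19 and -0.05. Of 34 intergenic RNAs named LINC, 8 passed in HS578T (3 lower, 5 higher) and 13 in MDA-MB-231 (7 lower, 6 higher), with medians of 0.09 and 0.05. Of 9 microRNA host genes, 6 passed in HS578T (2 lower, 4 higher) and 2 in MDA-MB-231 (1 lower, 1 higher). These lists stand beside a background of 50.7% and 42.6% of all genes.

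Without regard to any test, both siGpx1 libraries lay below both controls for 38 members in HS578T and 41 in MDA-MB-231, and above both for 22 and 20. Over all 14249 genes tested the shares were 31.7% and 35.8% below, and 40.5% and 35.7% above. Over all genes, the chi-square between replicates averaged 4.05 for HS578T siGpx1 and 1.35 for MDA-MB-231 siGpx1, beside 1.96 and 1.71 for HS578T and MDA-MB-231 controls. The main fit shares 1 estimate of spread per gene over the 4 groups. What this does to the number of calls in each line was not tested beyond the fit of each line alone.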
